A study of Oryctolagus cuniculus with 8 samples.

Results

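The retinal pigment epithelium is known by more than the enzymes that handle retinol, and 9 of its other genes were chosen by name: C1QTNF5, BEST1, SERPINF1, MERTK, RRH, CHRNA3, SLC16A3, SLC26A4 and TRPM1. A gene of the deposited table was taken when its symbol was one of these, which gave 8 genes of the 25666 in the table. RRH, a light-binding opsin of the pigment epithelium known as peropsin, was not analysed here, as its symbol was not met in the table. Of the 8 genes found, 6 passed the filter on low values and were tested, and BEST1 and SLC26A4 did not pass it.

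RNA had been sequenced from dissected retinas of male wild-type Chinchilla rabbits of about 10 months, in 8 libraries. The groups were ND (standard chow), HFD (chow with 10% lard and 0.5% cholesterol), HSD (chow with 40% sucrose) and HFSD (chow with 35% sucrose besides the 10% lard and 0.5% cholesterol), with 2 retinas in each and 6 months of feeding. The labels do not say whether the 2 retinas of a diet came from different rabbits, so p-values measure the spread between these retinas only. The values are FPKM, fragments per gene after scaling by gene length and library depth. The question put to them was whether these markers moved as a group or singly. Several are also made by other retinal cells, as described below, so their levels cannot measure the amount of pigment epithelium in a sample.

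The pigment epithelium is a single layer of pigmented cells between the photoreceptors and the choroid. It engulfs the tips that photoreceptors shed, regenerates the chromophore of the visual pigment, carries ions, water and lactate towards the blood, and secretes factors that maintain its neighbours. Several of the genes described here are also used by cells of the neural retina. TRPM1 is the cation channel that ON bipolar cells open in light, MERTK is also made by Müller glia and macrophages, and CHRNA3 is a nicotinic receptor subunit of retinal neurons.

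The depth by which the libraries were divided, recovered from the steps between FPKM values, ran from 15764577 to 22785832 fragments. HSD replicate 2 stood apart in a list of 14 skeletal muscle genes (PVALB and TPM2 the highest on average), whose summed level was 734 FPKM there and 81.5 to 124 FPKM in the other 7 libraries. Its list of 7 genes of fibroblasts and stroma (LUM and DCN the highest) summed to 52.0 FPKM, against 17.0 to 29.0 FPKM elsewhere. ND replicate 2 and HFD replicate 1 stood apart in OPTC, a gene of the ciliary body and with MYOC the highest of 3 anterior segment genes, with 11.7 and 37.6 FPKM against at most 0.209 FPKM in the other 6. RPE65, the isomerase of the visual cycle and a defining gene of the pigment epithelium, was present in every library, at 10.1 to 119 FPKM.

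The 8 genes spanned a wide range of levels per length of transcript. In order of mean FPKM over the 8 libraries they were TRPM1 (61.5), SLC16A3 (30.7), C1QTNF5 (15.2), MERTK (8.23), CHRNA3 (4.74), SERPINF1 (3.98), BEST1 (0.606) and SLC26A4 (0.0725). The first 6 overlapped in their ranges over libraries with their neighbours in this order, TRPM1 with 45.0 FPKM in its lowest library and SLC16A3 with 47.7 FPKM in its highest included. BEST1 lay below these 6 and above SLC26A4 in all libraries.

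C1QTNF5 was the gene with the clearest difference between diets, and it was lower in the retinas fed sucrose. It encodes a secreted protein of the C1q and TNF family that the pigment epithelium releases at its membranes, and mutations in it cause late-onset retinal degeneration. Its level was 26.2 and 24.7 FPKM in ND, 19.3 and 20.3 FPKM in HFD, 5.63 and 12.8 FPKM in HSD, and 5.88 and 6.49 FPKM in HFSD. All 4 libraries without sucrose lay above all 4 libraries with sucrose, as in 6.48% of all genes tested, and the mean of HFD lay below ND by less than those of HSD and HFSD did. The mean was 22.6±3.34 FPKM without sucrose and 7.69±3.39 FPKM with it (s.d., n=4 each). In limma with Benjamini-Hochberg adjustment over 12204 genes, C1QTNF5 fell by 1.50 on the log2 scale of FPKM plus 1 with sucrose (standard error 0.209, 95% confidence interval -1.99 to -1.01, adjusted p=0.0437). It was 1 of 42 genes called in this comparison, which is 0.344% of those tested (0.287% were called lower), and the only one of the 6 tested markers. An exact two-sided permutation test over the 70 splits of 4 against 4 libraries gave p=0.0286 for C1QTNF5, the smallest value that this design allows, and was run on each of the 8 markers. In a sample of whole retina, fewer cells of a type and less RNA per cell cannot be told apart.

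Against ND alone, C1QTNF5 stood at 77.8% of the ND mean in HFD, 36.1% in HSD and 24.3% in HFSD. The log2 changes were -0.35 for HFD, -1.47 for HSD and -1.88 for HFSD, with adjusted p of 0.998, 0.249 and 0.154 by limma with Benjamini-Hochberg adjustment, so no single diet passed. Both libraries of each diet lay below both ND libraries, where 25.9%, 39% and 42.3% of all genes tested were without overlap in HFD, HSD and HFSD, counting both directions. The interaction of fat and sucrose was -0.07 (95% confidence interval -1.04 to 0.91), and the comparison of fat diets with diets without fat gave -0.38 (-0.87 to 0.11). Neither these nor the difference of HFD from ND passed the test.

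The gene model of C1QTNF5 is short, at 732 bases, and the fragments behind its values were correspondingly few. It took 375 and 320 fragments in ND, 282 and 271 fragments in HFD, 65 and 161 fragments in HSD, and 98 and 75 fragments in HFSD. Exact Poisson intervals, which cover counting error only, ran from 4.35 to 7.18 FPKM in HSD replicate 1 and from 10.9 to 14.9 FPKM in HSD replicate 2. The HSD libraries thus differed beyond counting error, and HSD replicate 2 is the library that stood apart in muscle and stromal genes. Whether these cells had a part in its C1QTNF5 level was not tested. Without HSD replicate 2, the log2 change with sucrose was -1.76 (adjusted p=0.00606 by limma with Benjamini-Hochberg adjustment). Without HSD replicate 1 it was -1.24 (adjusted p=0.0178, limma and Benjamini-Hochberg as before). The call was lost when any 1 of the ND, HFD or HFSD libraries was left out, with log2 changes of -1.47 to -1.53 and limma Benjamini-Hochberg adjusted p of 0.0643 (without ND replicate 1), 0.0719 (ND replicate 2), 0.117 (HFD replicate 1), 0.0919 (HFD replicate 2), 0.168 (HFSD replicate 1) and 0.136 (HFSD replicate 2). It was also lost under 5 of 10 other settings of the processing, with adjusted p of 0.0506 to 0.159 by limma with Benjamini-Hochberg adjustment.

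**Figure D1:**
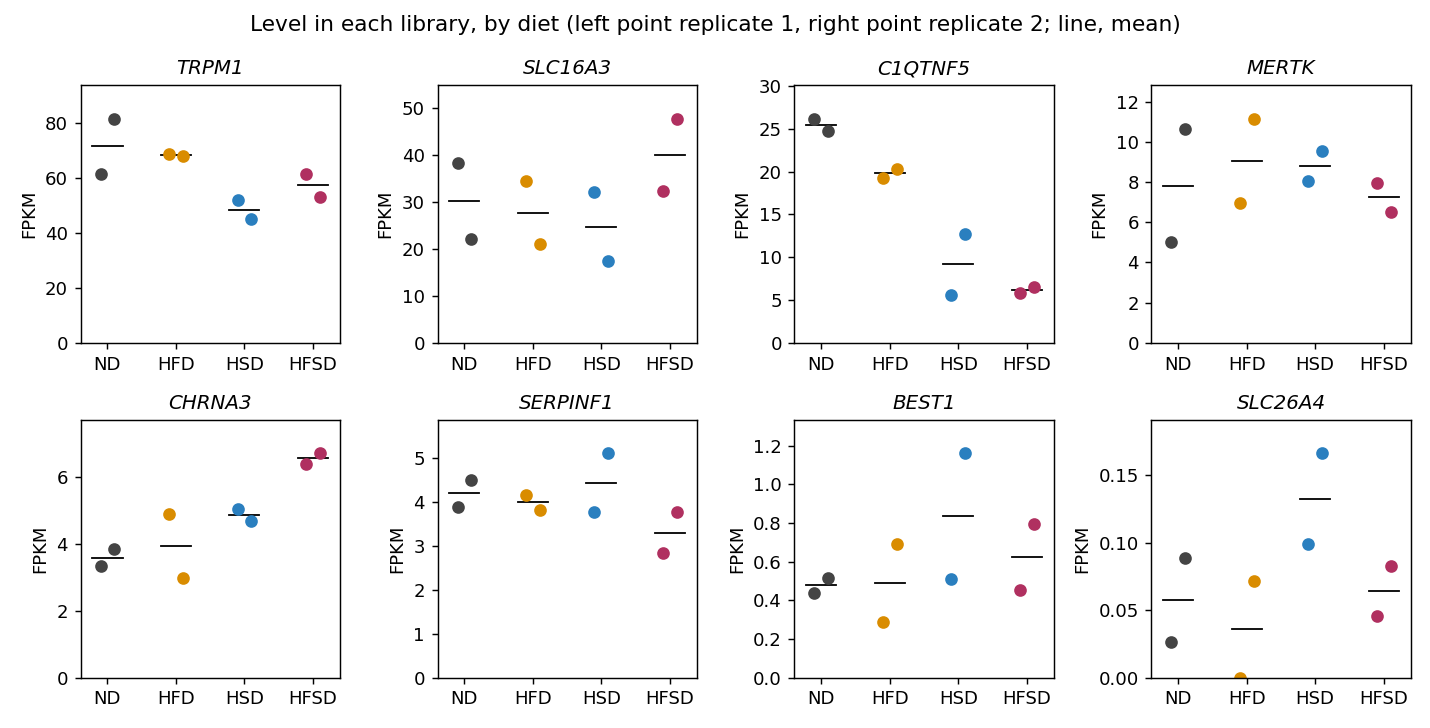
FPKM (vertical axes, each from 0) of the 8 markers in each of the 8 libraries, by diet (horizontal axes), with replicate 1 as the left point, replicate 2 as the right point and the mean of the 2 as a line. C1QTNF5 separates the diets with sucrose (5.63 to 12.8 FPKM) from those without (19.3 to 26.2 FPKM), and CHRNA3 is highest in HFSD (6.41 and 6.71 FPKM).

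C1QTNF5 shares a transcript with its neighbour MFRP, a membrane frizzled-related protein of the pigment epithelium, and in the RefSeq annotation of the rabbit (assembly mOryCun1.1) the pair lie within 2000 bases of each other. MFRP was at 10.1 and 13.4 FPKM in ND, 3.95 and 3.31 FPKM in HFD, 2.56 and 4.58 FPKM in HSD, and 3.04 and 2.85 FPKM in HFSD. MFRP was thus low in HFD as well, where C1QTNF5 was still at 19.3 and 20.3 FPKM. The ratio of C1QTNF5 to MFRP within a library was 2.58 and 1.85 for ND, 4.88 and 6.13 for HFD, 2.20 and 2.79 for HSD, and 1.94 and 2.28 for HFSD, so both HFD libraries lay above the other 6. How fragments of the shared transcript were divided between the pair is not given in the sources used here, and its effect on this ratio was not tested. RefSeq also places RNF26 over C1QTNF5, and strand-specific counting is not stated.

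BEST1, the calcium-activated chloride channel of the basolateral membrane whose mutations cause Best disease, was low in every library. Its level was 0.438 and 0.517 FPKM in ND, 0.286 and 0.689 FPKM in HFD, 0.508 and 1.16 FPKM in HSD, and 0.452 and 0.797 FPKM in HFSD, on 10 to 35 fragments. The groups overlapped, and the highest library was HSD replicate 2, which alone reached 1 FPKM. The exact Poisson interval of that library was 0.808 to 1.61 FPKM and that of the lowest, HFD replicate 1, was 0.137 to 0.527 FPKM. With and without sucrose BEST1 differed by a log2 of 0.21 (exact two-sided permutation test, n=4 each, p=0.2). Leaving HSD replicate 2 aside, the other HSD library lay within the range of the ND libraries. RefSeq places FTH1, the heavy chain of ferritin, over BEST1, and how fragments of overlapping genes were counted is not given in the sources used here.

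SLC26A4, the anion exchanger pendrin, was at the limit of detection. It took 2 and 6 fragments in ND, 0 and 5 fragments in HFD, 6 and 11 fragments in HSD, and 4 and 5 fragments in HFSD. These are 0.0267 and 0.0884 FPKM in ND, 0 and 0.0714 FPKM in HFD, 0.0992 and 0.166 FPKM in HSD, and 0.0458 and 0.0826 FPKM in HFSD. The count of 0 in HFD replicate 1 has an upper limit of 0.0392 FPKM as the value of 3 fragments, and of 0.0482 FPKM by the exact Poisson interval used for the other libraries. Both HSD libraries lay above both ND libraries, although HSD replicate 1 and ND replicate 2 rest on 6 fragments each, with exact Poisson intervals of 0.0364 to 0.216 and 0.0324 to 0.192 FPKM. The exact permutation test of sucrose (two-sided, n=4 each) gave p=0.171, and no difference was detectable at this depth.

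Among the other transport genes, SLC16A3 encodes MCT4, a lactate exporter of glycolytic cells. It was at 38.3 and 22.1 FPKM in ND, 34.4 and 21.1 FPKM in HFD, 32.0 and 17.4 FPKM in HSD, and 32.3 and 47.7 FPKM in HFSD. In HFD, HSD and HFSD the 2 libraries differed from each other by more than their mean differed from the ND mean, and all groups overlapped with ND. Its change was 0.12 with sucrose (95% confidence interval -0.52 to 0.75), 0.42 in HFSD (-0.48 to 1.32) and -0.29 in HSD (-1.19 to 0.61). In HSD replicate 2 it was the lowest of all libraries. RefSeq places CSNK1D over SLC16A3.

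Of 10 other genes of monocarboxylate transport found, 8 were tested and 0 were called in any comparison, with 2 higher and 1 lower with sucrose at an unadjusted p under 0.05 in limma, a limit that 18.3% of all genes tested passed in either direction. LDHA, the lactate dehydrogenase subunit of glycolytic tissue, was the highest at 678 to 1055 FPKM, followed by LDHB at 345 to 501 FPKM. Of 10 other genes of ion and chloride transport in the pigment epithelium, 9 were tested and 0 called (0 higher and 2 lower at an unadjusted p under 0.05 in limma with sucrose). Of 15 relatives of BEST1, C1QTNF5 and SLC26A4, 5 were tested and 0 called (1 higher and 0 lower at an unadjusted p under 0.05 in limma with sucrose), SLC26A2 (5.48 to 16.7 FPKM) and SLC26A6 (8.73 to 10.8 FPKM) being the highest. Of 4 other opsins outside the photoreceptors, the family of RRH, all 4 were tested and 0 called (1 higher and 1 lower by the same measure), RGR (85.3 to 218 FPKM) and OPN3 (3.22 to 5.64 FPKM) being the highest.

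MERTK is the receptor kinase through which the pigment epithelium takes up shed outer segments, and its loss causes retinal degeneration. Its level was 5.00 and 10.6 FPKM in ND, 6.98 and 11.2 FPKM in HFD, 8.07 and 9.54 FPKM in HSD, and 7.94 and 6.53 FPKM in HFSD. The ND libraries differed from each other by more than any pair of diet means did, and all diets overlapped with ND. The change with sucrose was -0.02 (95% confidence interval -0.56 to 0.52), and the exact permutation test (two-sided, n=4 each) gave p=0.943. In HFD, HSD and HFSD against ND it was 0.24, 0.23 and -0.03.

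Of 13 other genes of outer segment phagocytosis found, 12 were tested and 0 were called in any of the 6 comparisons, with 0 higher and 1 lower with sucrose at an unadjusted p under 0.05 in limma. Their median log2 change with sucrose was -0.20, with 5 higher and 7 lower, against a median of -0.01 over all genes tested. TULP1 (462 to 647 FPKM) and TUB (202 to 263 FPKM), relatives that link shed membrane to MERTK, were the highest.

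SERPINF1 encodes PEDF, a secreted serpin that keeps vessels from growing and supports photoreceptors. It was at 3.88 and 4.49 FPKM in ND, 4.16 and 3.82 FPKM in HFD, 3.76 and 5.10 FPKM in HSD, and 2.82 and 3.77 FPKM in HFSD, on 366 to 543 fragments. Both HFSD libraries lay below both ND libraries, and the other diets overlapped with ND. Its change in HFSD was -0.28 (95% confidence interval -0.72 to 0.17, adjusted p=0.750 by limma with Benjamini-Hochberg adjustment), and with sucrose -0.08 (-0.40 to 0.23). The highest library was again HSD replicate 2. Of 6 PEDF receptors and related serpins found, 4 were tested and 0 called (0 higher and 1 lower at an unadjusted p under 0.05 in limma with sucrose), SERPINI1 (104 to 160 FPKM) and LRP6 (6.52 to 10.5 FPKM) being the highest.

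TRPM1 was the most abundant of the markers. It was at 61.5 and 81.7 FPKM in ND, 69.0 and 68.0 FPKM in HFD, 52.1 and 45.0 FPKM in HSD, and 61.5 and 53.2 FPKM in HFSD, on 3716 to 6930 fragments. All 4 libraries with sucrose lay below all 4 without, as in 6.48% of all genes tested, though only just, ND replicate 1 being at 61.52 and HFSD replicate 1 at 61.49 FPKM. The means were 70.1±8.46 FPKM without and 53.0±6.76 FPKM with sucrose (s.d., n=4 each). The exact two-sided permutation test over libraries (n=4 each) gave p=0.0286, the smallest value of this design, which follows from the lack of overlap. Over all genes the change of -0.40 (95% confidence interval -0.66 to -0.14) was not called, with an adjusted p of 0.160 by limma with Benjamini-Hochberg adjustment. Against ND it was -0.54 in HSD (adjusted p=0.479, limma, Benjamini-Hochberg) and -0.30 in HFSD (0.670). Without HSD replicate 2, the library with the least TRPM1, the change with sucrose was -0.35 (adjusted p=0.362, limma, Benjamini-Hochberg).

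TRPM1 opens downstream of the glutamate receptor mGluR6 in ON bipolar cells, and 14 other genes of that cascade were found and tested. None (0 of 14) was called in the 6 comparisons, at an unadjusted p under 0.05 in limma 2 were higher and 1 lower with sucrose, and their median change with sucrose was 0.01. GRM6, the receptor itself, was at 83.7 and 81.1 FPKM in ND, 77.2 and 90.1 FPKM in HFD, 77.5 and 67.1 FPKM in HSD, and 84.1 and 72.3 FPKM in HFSD. HSD lay below ND in GRM6 and the other diets overlapped with ND, the change in HSD being -0.19 (adjusted p=0.802, limma with Benjamini-Hochberg adjustment). PCP2 (181 to 518 FPKM) and GNB3 (173 to 241 FPKM) were the highest of the cascade. PCP2 had a mean of 252 FPKM with sucrose and 401 FPKM without, and GNB3 of 233 and 207 FPKM. RefSeq places the microRNA gene MIR211 within TRPM1.

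CHRNA3, the alpha-3 subunit of nicotinic acetylcholine receptors, had its highest values in HFSD. Its level was 3.34 and 3.85 FPKM in ND, 4.90 and 2.99 FPKM in HFD, 5.04 and 4.70 FPKM in HSD, and 6.41 and 6.71 FPKM in HFSD, on 101 to 270 fragments. Both HSD and both HFSD libraries lay above both ND libraries, and HFSD lay above all 6 other libraries, while HFD replicate 1 overlapped with HSD. The HFSD mean was 182% of the ND mean. The change in HFSD was 0.72 (95% confidence interval 0.25 to 1.19, adjusted p=0.457) and with sucrose 0.50 (0.16 to 0.83, adjusted p=0.164), neither of which passed in limma with Benjamini-Hochberg adjustment. The exact permutation test of sucrose (two-sided, n=4 each) gave p=0.0571.

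Of 8 other nicotinic subunits found, 3 were tested and 0 were called, at an unadjusted p under 0.05 in limma also 0 with sucrose and 0 in HFSD, with 1 lower in HFD and with fat, CHRNB3. CHRNA6 was at 17.9 and 13.9 FPKM in ND and 22.3 and 22.5 FPKM in HFSD, and CHRNB3 at 11.3 and 14.4 FPKM in ND, 5.07 and 5.42 FPKM in HFD and 8.36 and 12.1 FPKM in HFSD. CHRNA5, the neighbour of CHRNA3, was at most 0.0462 FPKM. The 10 ganglion cell genes tested (SNCG and NEFL the highest) had a median log2 change of 0.38 in HFSD, where CHRNA3 was highest, with 9 higher and 1 lower, 0 called, and a summed level of 873 and 995 FPKM in HFSD against 983 and 611 FPKM in ND. The 6 genes of cholinergic amacrine cells (SOX2 and MEGF10 the highest) summed to 76.6 and 62.5 FPKM in HFSD and 65.0 and 76.9 FPKM in ND, and without SOX2 to 30.7 and 26.2 FPKM in HFSD and 27.1 and 27.3 FPKM in ND. In HFSD 3 of the 6 had a log2 change above 0 and 3 below it, with a median of -0.02. CHAT, SLC18A3 and SLC5A7 were at 130%, 101% and 150% of the ND mean, and SOX2, MEGF10 and MEGF11 at 93.8%, 90.1% and 94.4%. SLC5A7, the choline transporter, was at 3.87 and 3.17 FPKM in HFSD and 2.55 and 2.15 FPKM in ND, and like CHRNA3 it had its highest library in HFSD. All 4 libraries with sucrose lay above all 4 without in SLC5A7 (2.93 to 3.87 and 2.02 to 2.55 FPKM; 12.9% of all genes did not overlap), a change of 0.45 that was not called (adjusted p=0.156, limma with Benjamini-Hochberg adjustment). The part of these cells in CHRNA3 was not tested.

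**Figure D2:**
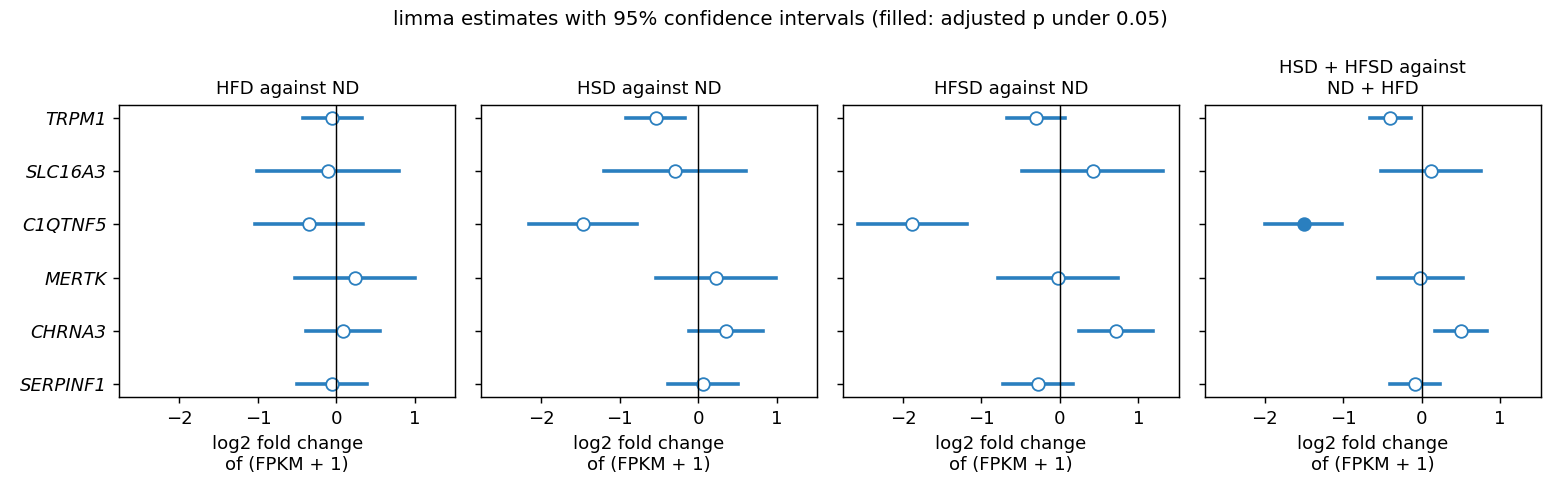
Log2 fold changes of FPKM plus 1 (horizontal axes) for the 6 tested markers (vertical axis), from limma, with 95% confidence intervals as bars, for each diet against ND and for the diets with sucrose against those without. The filled point, C1QTNF5 with sucrose at -1.50, is the only estimate with an adjusted p under 0.05.

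Across the 6 tested markers, the comparisons can be set beside all 12204 genes. In HFD against ND, 0 markers were called (0.00819% of all genes) and 1 of 6, C1QTNF5, did not overlap between groups, against 25.9% of all genes. In HSD, 0 were called (0.0574%) and 3 of 6 did not overlap (39%), namely C1QTNF5 and TRPM1 below ND and CHRNA3 above it. In HFSD, 0 were called (0.0164%) and 4 of 6 did not overlap (42.3%), SERPINF1 joining the same 3 genes. With 6 markers, these counts lie near the shares of all genes. For sucrose, 2 of 6 did not overlap (12.9%), both lower (6.48%). In the comparison of fat diets 0 were called (0.00819%) and 0 did not overlap (1.34%), and 0 had an interaction called (0.00819%). The limma count at an unadjusted p under 0.05 was 0 of 6 in HFD (4.31% of all genes), 2 in HSD (7.2%), 2 in HFSD (8.07%), 3 with sucrose (18.3%), 0 with fat (3.2%) and 0 for the interaction (3.74%), and voom on recovered fragments called 0 in all 6 comparisons. The median log2 change of the 6 was -0.05 in HFD, -0.12 in HSD, -0.15 in HFSD and -0.05 with sucrose, and the median of all genes lay between -0.01 and 0.01 in these comparisons. Over all 8 markers, with no filter on low values, it was -0.04, 0.08, -0.01 and 0.03, so that its sign in HSD and with sucrose depended on BEST1 and SLC26A4. The 3 diets share the ND libraries, so their values are not independent of each other.

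The visual cycle genes of the same layer, which no marker is part of, were set beside the markers. Here too, fewer cells and less RNA per cell cannot be told apart. RPE65 was at 119 and 74.6 FPKM in ND, 34.8 and 10.1 FPKM in HFD, 18.9 and 13.7 FPKM in HSD, and 25.6 and 12.1 FPKM in HFSD. RDH5, the retinol dehydrogenase of the same cycle, was at 14.8 and 13.5 FPKM in ND, 2.72 and 2.73 FPKM in HFD, 1.82 and 1.79 FPKM in HSD, and 3.21 and 0.956 FPKM in HFSD. Both were lower than both ND libraries in all 6 libraries of the other diets, HFD included. Of all genes tested, 25.9%, 39% and 42.3% did not overlap with ND in HFD, HSD and HFSD, counting both directions. Neither gene was called, with limma Benjamini-Hochberg adjusted p of 0.318 to 0.907 for RPE65 and 0.0906 to 0.505 for RDH5 in the 3 diets. RDH5 did pass under some other settings of limma with Benjamini-Hochberg adjustment. In HSD these were a pseudocount of 5 and a fit of these libraries alone (adjusted p down to 0.0298), and in HFSD a pseudocount of 5 (0.0418). With sucrose RDH5 passed under 1 of 10 other settings (adjusted p=0.0376, limma, Benjamini-Hochberg). In HFD it passed only in fits without an HFSD library, its log2 change being -2.09 to -1.96 over the 8 left-out libraries.

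Counted as genes whose diet mean was under 50% of the ND mean, the markers gave 0 of 8 for HFD, 1 of 8 for HSD and 1 of 8 for HFSD, C1QTNF5 in both. The 8 include TRPM1, MERTK and CHRNA3, which other retinal cells also use, and BEST1 and SLC26A4, which lay below the filter. Their count is therefore not that of genes particular to the pigment epithelium. Of 13 visual cycle and retinoid genes, 6, 7 and 9 were under this limit, and 6 were so in all 3 diets. Of 12 melanin and melanosome genes, 6, 6 and 7 were under it, 6 of them in all 3 diets. Of 15 other pigment epithelium genes, 5, 10 and 10 were under it, 4 of them in all 3 diets, against 0 of the 8 markers. The share was 1.02%, 2.9% and 2.79% of the genes tested in HFD, HSD and HFSD, and 5.38%, 6.94% and 7.44% of all protein-coding genes, which like these counts hold genes too low to be tested. The most abundant genes of these 3 lists were RLBP1 and CRABP1, MREG and SLC24A4, and OTX2 and ENPP2, of which RLBP1 alone was under 50%, at 41.2% in HFSD. TIMP3, an inhibitor of metalloproteinases that the pigment epithelium lays down in Bruch's membrane, was the only gene of the lists called in any comparison besides C1QTNF5. It was at 18.1 and 10.4 FPKM in ND, 9.62 and 6.02 FPKM in HFD, 1.84 and 3.59 FPKM in HSD, and 2.16 and 2.46 FPKM in HFSD, a change with sucrose of -1.71 (adjusted p=0.0437, limma with Benjamini-Hochberg adjustment). This call was lost under 5 of 10 other settings (adjusted p up to 0.159 by limma with Benjamini-Hochberg adjustment) and without any 1 of 7 of the 8 libraries, ND replicate 2 excepted (up to 0.166). Like C1QTNF5, TIMP3 was lower in all 4 libraries with sucrose than in all 4 without.

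**Figure D3:**
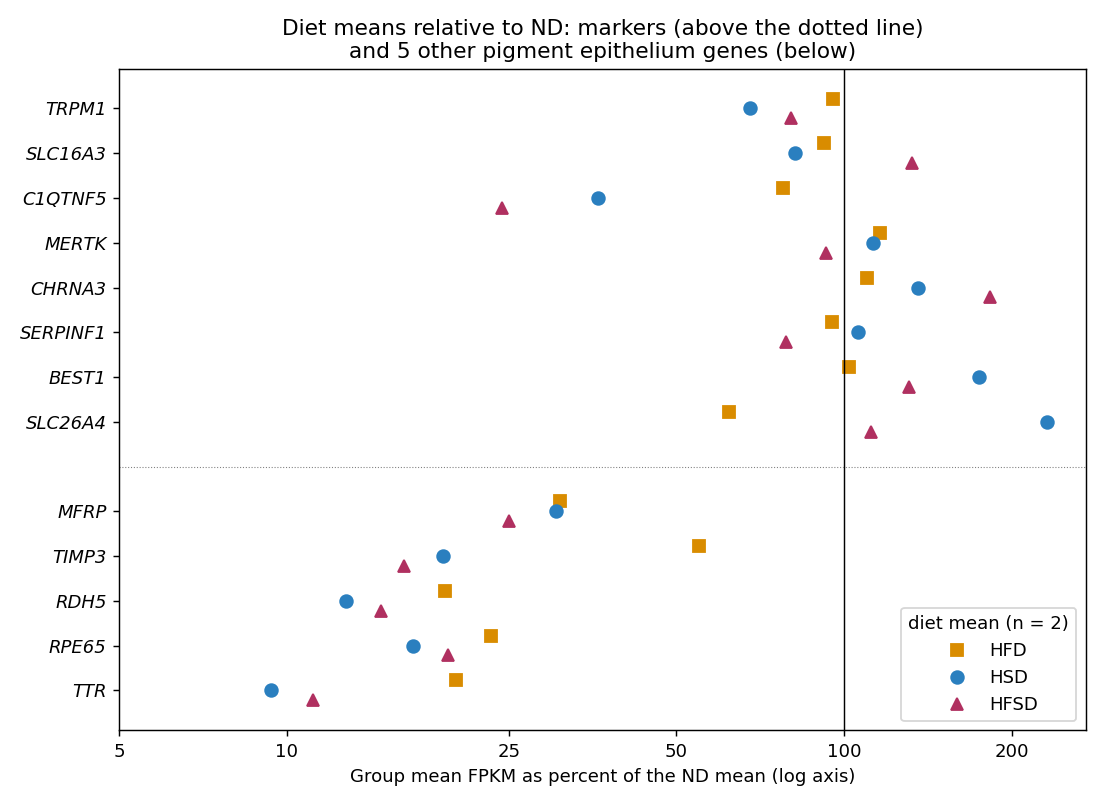
Mean FPKM of HFD, HSD and HFSD (n=2 each, symbols) as a percent of the ND mean (horizontal log axis, line at 100%), for the 8 markers above the dotted line and for MFRP, TIMP3, RDH5, RPE65 and TTR below it. Of the markers, C1QTNF5 alone is under 50% of ND (36.1% in HSD, 24.3% in HFSD), whereas RDH5, RPE65, TTR and MFRP are under 50% in all 3 diets. The genes below the line were picked, and others of their lists, not drawn, stayed above 50%. Examples are OTX2 (103%, 103% and 100% in HFD, HSD and HFSD) and ENPP2 (98.9%, 65.9% and 69.7%).

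Dividing each marker by RPE65 or RDH5 within a library sets the level of a gene against that of the visual cycle in the same retina. The ratio of C1QTNF5 to RPE65 was 0.220 and 0.331 for ND, 0.554 and 2.01 for HFD, 0.298 and 0.930 for HSD, and 0.230 and 0.538 for HFSD. The ratio of TRPM1 to RPE65 was 0.517 and 1.10 for ND, 1.98 and 6.75 for HFD, 2.76 and 3.28 for HSD, and 2.40 and 4.41 for HFSD. TRPM1 thus stood higher against RPE65 in all 6 libraries of the other diets, while C1QTNF5 overlapped with ND in HSD and HFSD. The ratio of C1QTNF5 to RDH5 was 1.769 and 1.829 for ND, 7.09 and 7.44 for HFD, 3.10 and 7.11 for HSD, and 1.830 and 6.79 for HFSD. Against RDH5, both C1QTNF5 and TRPM1 thus lay above ND in all 6, C1QTNF5 only just in HFSD replicate 1. Over the 8 libraries the highest ratio to RPE65 was 9.15 times the lowest for C1QTNF5, 11.6 for SERPINF1, 13.1 for TRPM1, 13.3 for SLC16A3, 19.8 for CHRNA3, 23.0 for BEST1 and 26.4 for MERTK. A gene at a constant level would have scored 11.8, the range of RPE65 itself. The same figure was 3.47 for RDH5, 3.92 for MFRP, 5.31 for TTR, the thyroxine and retinol carrier, and 7.09 for TIMP3, a further pigment epithelium gene. These comparison genes were picked, and their means were below ND in HFD, HSD and HFSD. Other genes of the same lists changed less, such as RGR, KCNJ13 and OTX2. These were at 105%, 89.0% and 103% of the ND mean in HFD, against 23.2% for RPE65. Ratios of such genes to RPE65 or RDH5 were not computed. Against RDH5, whose own range was 15.5, C1QTNF5 varied 4.20 times and the other 6 markers between 13.4 and 31.1 times, while TTR varied 2.09, MFRP 4.36 and TIMP3 5.27 times. Among the 7 markers C1QTNF5 had the narrowest range against both, as a description of these 8 libraries, and against RDH5 its range was close to those of MFRP and TIMP3.

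**Figure D4:**
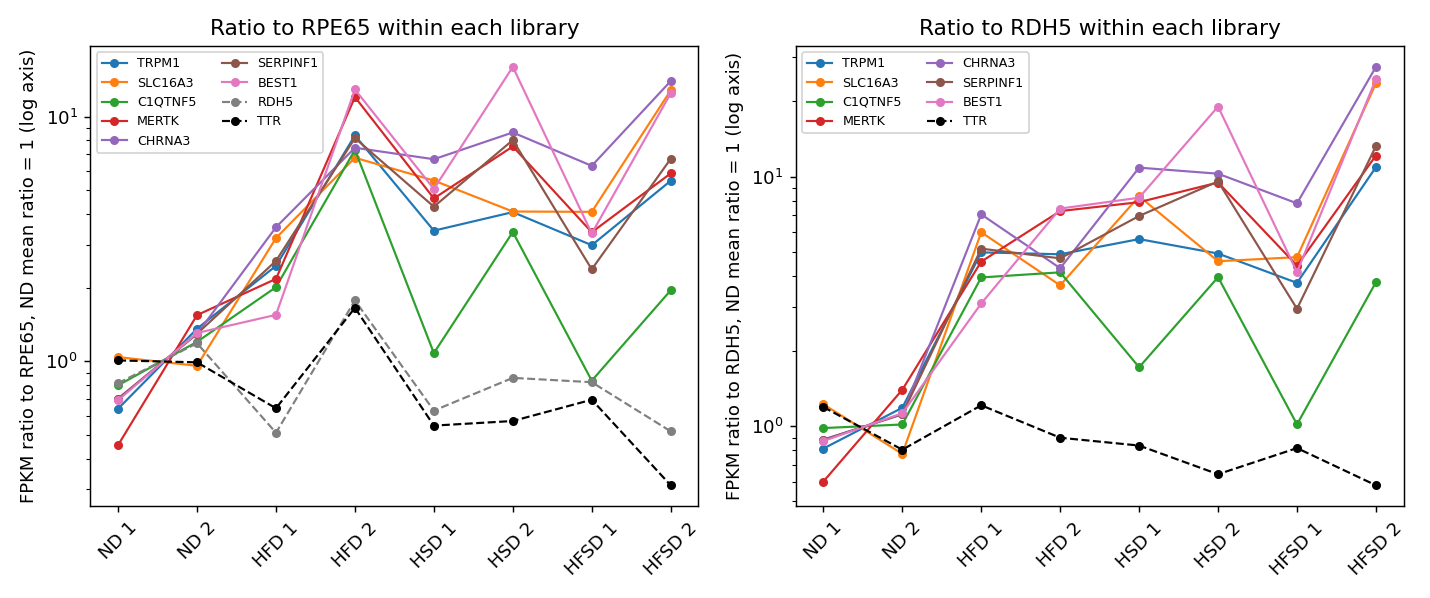
Ratio of FPKM to RPE65 (left) and to RDH5 (right) in each of the 8 libraries (horizontal axes), with the mean ratio of ND set to 1, on log axes. Solid lines are 7 markers (SLC26A4, with a library at 0, is left out), dashed lines are RDH5 and TTR, and lines only join the points of a gene. Outside ND most points of the markers lie above 1, those of C1QTNF5 lower than the other markers in the 4 libraries with sucrose, and the dashed lines span a smaller range. Pigment epithelium genes that changed less than RDH5 and TTR are not drawn.

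The genes whose pattern over the 8 libraries was most like that of a marker, by Pearson's correlation of log2(FPKM + 1) over 9876 genes with a symbol, are given as a description. For C1QTNF5 they were FSTL1 (r=0.973), HTRA1 (0.960) and PBXIP1 (0.959). For TRPM1 they were SLC9A3R1 (0.982), NTN3 (0.975) and GRINA (0.965). For MERTK they were GCLC (0.975), IMPA2 (0.964) and SFI1 (0.963). For CHRNA3, SERPINF1 and SLC16A3 the closest were CSNK1A1 (0.946), GPATCH3 (0.923) and SGCE (0.949). The correlation with RPE65 was 0.564 for C1QTNF5, 0.518 for TRPM1, 0.186 for SLC16A3, 0.0495 for SERPINF1, -0.341 for CHRNA3 and -0.432 for MERTK. With RDH5 it was 0.709 for C1QTNF5, 0.632 for TRPM1, 0.0956 for SERPINF1, -0.0918 for SLC16A3, -0.136 for MERTK and -0.600 for CHRNA3. C1QTNF5 and TRPM1 thus had similar correlations with both genes. All of these rest on the same 8 libraries and on their shared diets and dissections, and the top of so many genes is high by selection.

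Summed levels of some other cell types differed in the same direction as C1QTNF5. The 9 Müller glia genes (GLUL and VIM the highest) summed to 2803 to 4045 FPKM without sucrose and 2068 to 2217 FPKM with it, and the 12 genes of microglia and macrophages (CD74 and C1QC the highest) to 19.2 to 36.2 and 13.3 to 19.6 FPKM. Of the genes tested, 7 of 9 Müller glia genes and 11 of 11 microglia and macrophage genes had a log2 change below 0 with sucrose. GLUL, the glutamine synthetase of glia, was at 1713 FPKM on average without and 812 FPKM with sucrose, and the other 8 Müller glia genes summed to 1314 to 1918 and 1307 to 1463 FPKM, so that the groups overlapped. RLBP1 (218 and 105 FPKM), CRYM (59.5 and 24.6 FPKM), VIM (894 and 756 FPKM), HES1 (49.2 and 32.7 FPKM) and AQP4 (8.56 and 5.40 FPKM) also had lower means with sucrose, whereas SLC1A3 (190 and 188 FPKM), KCNJ10 (42.7 and 43.5 FPKM) and DKK3 (198 and 204 FPKM) had similar means. Without CD74 the microglia and macrophage genes summed to 15.6 to 29.2 and 11.2 to 16.1 FPKM. In limma, 0 genes of either list were called in the comparison of sucrose, and 3 of 9 and 5 of 11 tested were lower at an unadjusted p under 0.05, against 18.3% of all genes in either direction. MERTK, which both cell types make, was at 8.44±2.95 FPKM without and 8.02±1.23 FPKM with sucrose (s.d., n=4 each). The 8 rod photoreceptor genes had a median change of -0.19 with sucrose, and 0 were called or had an unadjusted p under 0.05 in limma. The 8 endothelial genes (KDR and FLT1 the highest) summed to 124 to 163 FPKM over all libraries, of which KDR alone made up 75.8 to 131 FPKM. Of these 8 genes, 0, 4 and 5 had a mean under 50% of ND in HFD, HSD and HFSD, such as CLDN5 (6.72% in HSD and 25.4% in HFSD) and VWF (12.7% and 19.2%), while KDR (112% and 110%), FLT1 (108% and 137%) and PLVAP (877% and 326%, under the filter) had means above ND in both diets. PLVAP took 2 and 1 fragments in ND and 0 and 24 fragments in HSD, so its HSD mean rests on HSD replicate 2. The ND libraries themselves were far apart in CLDN5 and VWF, with 28.0 and 1.03 FPKM of CLDN5 and 3.77 and 0.00648 FPKM of VWF, and the 5 endothelial genes tested had 2 changes above 0 and 3 below it with sucrose, of which 0 were called or had an unadjusted p under 0.05 in limma. The part of these cells in C1QTNF5 and TRPM1 was not tested.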

How the data were processed

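RNA from dissected retinas was sequenced (TRIzol extraction, TruSeq libraries, HiSeq sequencing). After trimming, the authors mapped reads with TopHat2, kept reads with a single location and computed FPKM per gene, which they deposited per library in a table that speaks of counts. Build, annotation and use of strand are not given in the sources used here, so no coordinates are given. FPKM values lie on steps of whole fragments (99.9993% of 142752 values above 0, within 0.05 of a whole number), which gave gene lengths, fragments and depths of 15764577 to 22785832. Counting intervals and the 3-fragment floor cover counting error only.

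Groups came from the labels. Log2(FPKM + 1) was tested with limma 3.58.1 (R 4.3.3; mean-variance trend, 1 model of all 8 libraries) over the 12204 protein-coding genes that reached 1 FPKM in 2 or more libraries, with Benjamini-Hochberg adjustment and a threshold of 0.05. The pseudocount of 1 understates the change of low genes. BEST1 and SLC26A4 lay below the filter, and their log2 differences with sucrose come with an exact permutation test (scipy 1.17.1). Comparisons were HFD, HSD and HFSD against ND, diets with and without sucrose, diets with and without fat, and the interaction. With 2 against 2 libraries an exact test cannot go below p=0.333. The fit was also tested on simulated log2 values with known changes. Alternatives were other pseudocounts, no filter, all biotypes, other scalings, no trend, fewer groups, voom, a replicate block and leaving out each library.

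The markers and the 20 gene lists were chosen with earlier results of these data known. Named besides the markers were, from each list, the 2 with the highest mean and any gene called, the 3 genes most correlated with a marker, RPE65 and RDH5. The highest genes of 2 lists are not reported here. MFRP, TTR, GRM6, CHRNA5, ACTA1, SLC1A3, KCNJ10, DKK3, CRYM, HES1, AQP4, SLC5A7, MEGF11, CLDN5, VWF, PLVAP, KCNJ13, CHAT and SLC18A3 were added after their values were seen.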

Additional observations from a re-analysis of the deposited data

Results flagged for a closer look

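Among the 4 libraries with sucrose, C1QTNF5 had 1 library far from the other 3. HSD replicate 2 was at 12.8 FPKM, and the other 3 were at 5.63, 5.88 and 6.49 FPKM. The gap to the nearest library took 0.879 of the whole range, above the 95% limit of Dixon's test for 4 values. The test was applied to 16 groups of 4 libraries, those with and those without sucrose for each of the 8 markers, and chance passes the limit in about 1 of 20 such groups. The same library had ACTA1, a skeletal muscle actin, at 105 FPKM against at most 0.707 FPKM elsewhere, and the part of this in its C1QTNF5 level was not tested.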

How the results depend on the processing

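The count of markers called with sucrose was 1 (C1QTNF5). It was 0 without the filter, with all biotypes, without the trend, with voom and with the replicate block. The limma Benjamini-Hochberg adjusted p of C1QTNF5 was then 0.159, 0.0590, 0.0540, 0.0506 and 0.0547. It was called with pseudocounts of 0.1 and 5, median-ratio scaling, quantile normalization and 2 groups in place of 4 (0.0247 to 0.0495), and its log2 change stayed between -1.62 and -1.15. Over the 8 left-out libraries this count was 0 to 1, and in HSD and in HFSD against ND also 0 to 1, the 1 being C1QTNF5 without HSD replicate 2 in HSD (adjusted p=0.0314, limma, Benjamini-Hochberg) and without HSD replicate 1 or 2 in HFSD (0.0139 and 0.0137). Where only 1 library of a diet was left, it was assumed to vary like the others. The replicate numbers did not pair the libraries (correlations of deviations from -0.165 to 0.0813), and the block took the genes called with sucrose from 42 to 25. No filter and voom gave 27 and 23. The fit of only the libraries compared was not run for the interaction, which compares all 8.

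Of 240 values of single markers under other settings, 233 kept direction and side of the threshold, 5 lost the call, all of C1QTNF5, and 2 changed sign, MERTK under voom (0.0079 in HFSD and 0.0043 with sucrose). Of 192 with a library left out, 160 kept both, 6 lost and 3 gained the call, and 23 changed sign, none of them C1QTNF5 or a called value. The lowest and highest log2 changes with a library left out were, in HFD, -0.14 and 0.03 for SERPINF1, -0.24 and 0.72 for MERTK, -0.20 and 0.36 for CHRNA3, -0.49 and 0.28 for SLC16A3 and -0.25 and 0.15 for TRPM1. In HSD they were -0.12 and 0.24 for SERPINF1, -0.25 and 0.71 for MERTK and -0.72 and 0.13 for SLC16A3. In HFSD they were -0.50 and 0.45 for MERTK, and with sucrose -0.17 and 0.00597 for SERPINF1, -0.26 and 0.22 for MERTK and -0.10 and 0.33 for SLC16A3. The cause of these changes was not tested. Depth limits BEST1 and SLC26A4, with at most 35 and 11 fragments in a library.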
